A study of Mus musculus with 9 samples.

Results

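The genes described are 10 genes of antigen presentation by major histocompatibility complex (MHC) class I molecules, taken by name from a table of 55228 mouse genes. They are the heavy chain genes *H2-K1* and *H2-D1*, the light chain gene *B2m*, the peptide transporter genes *Tap1* and *Tap2*, the tapasin gene *Tapbp*, the immunoproteasome genes *Psmb8*, *Psmb9* and *Psmb10*, and the class I transactivator gene *Nlrc5*. All 10 were among the 15253 genes with enough counts to be tested. RNA-seq was performed on 9 cultures of HC11, a mouse mammary epithelial line derived from an inbred BALB/c mouse, to compare parental cells with cells edited at *Vangl2*. The parental line (*WT*) and the edited lines *KD1* and *KD2* had 3 cultures each. The sample labels call the edited lines Vangl2 knockout 1 and 2, and the study's methods describe each as grown from a single colony after CRISPR/Cas9 editing with its own guide and a repair template that adds stop codons. Each edited line is therefore 1 clone, and the clone cannot be told apart from the editing. No library of cells cloned without a *Vangl2* guide was analysed here. Cells of all lines were kept undifferentiated, and their medium held insulin at 5 µg/mL, EGF at 10 ng/mL and 10% serum (FBS).

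Class I molecules carry short peptides from the cell's own proteins to its surface, where CD8 T cells read them. Proteasomes cut the peptides, with immunoproteasome subunits replacing constitutive ones in cells that have been exposed to interferon, and the TAP transporter moves the peptides into the endoplasmic reticulum, where tapasin helps load them on a heavy chain bound to β2-microglobulin. Most epithelial cells express the pathway at a low level and raise it after interferon, with IRF1 and NLRC5 among the factors involved.

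Between 20030410 and 25505223 reads per culture were counted on genes in *WT*, 25514438 to 27896032 in *KD1* and 19231428 to 28360592 in *KD2*. Levels are given in CPM, which are counts relative to a library size adjusted by the TMM method, with SD over 3 cultures. A floor of 3 counts, under which a gene was taken as not detected, equals 0.0998 to 0.153 CPM, less where the depth is greater, and covers counting error only. Some libraries stood apart from their replicates. Between cultures of a line, the chi-square value of counts per degree of freedom over genes was 1.41 to 1.87 in *KD1* and 1.83 between *KD2* replicates 1 and 2, but 19.0 and 24.5 between these and *KD2* replicate 3. In *WT* it was 3.51 between replicates 2 and 3, and 13.7 and 11.1 between these and *WT* replicate 1. For the 10 genes, calls that change without *KD2* replicate 3 or *WT* replicate 1 are named. The other genes were tested without either culture after the data had been seen, and the printed value of a single gene that then passes or no longer passes is marked. The numbers of passing genes in the lists and the region, which then changed by at most 4, are marked where the change is largest. Nothing in the sources used here says how separate the cultures of a line were, so p-values measure the spread between these cultures. *Vangl2* (ENSMUSG00000026556) itself had 66, 99 and 86 counts in *WT*, 75, 48 and 69 in *KD1* and 90, 118 and 90 in *KD2*. Against *WT*, *KD1* had a log2 fold change of -0.63 for this gene (SE 0.171, adjusted p = 0.0058) and *KD2* one of 0.05 (SE 0.162, adjusted p = 0.81), so the transcript level is no check of the label of *KD2*. These data do not measure the protein.

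The set was higher in both edited lines and highest in *KD2*. Of the 10 genes, 9 passed the test with a higher level in *KD1* than in *WT* (adjusted p under 0.05 by edgeR's quasi-likelihood test, over all genes tested) and 10 in *KD2*. Among all genes tested, 26.9% passed with a higher level and 30.0% with a lower level in *KD1*, and 34.0% and 33.3% in *KD2*. With a log2 fold change above 1 required as well, 5 of the 10 were called higher in *KD1* and 9 in *KD2*, where 9.34% and 14.5% of all genes were called higher and 7.49% and 6.71% lower. The set was chosen with earlier results of these data known, so the shares of all genes give a scale and not a test of the set. The counts also need care, because *Psmb8* passed the expression filter only through *KD2*, *Psmb9* only through *KD1* and *KD2*, and *Nlrc5* through *KD1*, *KD2* and 1 *WT* culture. Of the 7 genes above the filter in every culture, 7 passed with a higher level in each edited line, and 3 were called in *KD1* and 6 in *KD2*. These 7 had a median log2 fold change of 0.92 in *KD1* and 1.71 in *KD2*, where the median over all genes was -0.03 and 0.01. Over the whole set it was 1.01 and 2.14, and 1.10 and 1.79 without *Psmb8*. RNA was taken from whole cultures, so fewer cells with a transcript and less of it per cell cannot be told apart.

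**Figure D1:**
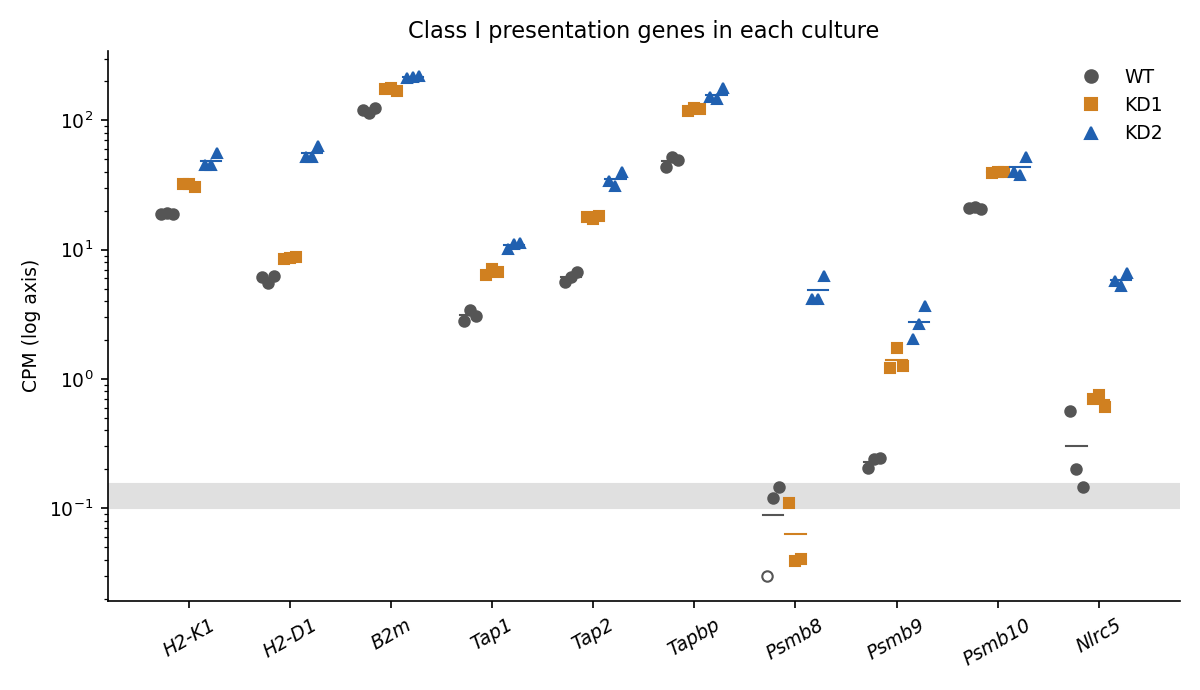
Level of each gene in each of the 9 cultures, in CPM on a log axis, with short lines at the mean of each line. The grey band is the floor of 3 counts over the libraries and the open circle a count of 0, drawn at the foot of the plot. *WT* and *KD1* overlap at the floor for *Psmb8*, and *KD1* and *KD2* overlap for *Psmb10*. How many of all genes tested have separate lines was not counted.

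The 2 heavy chain genes rose to different extents. *H2-K1* (ENSMUSG00000061232, chr17:33996017-34000347 of GRCm38, minus strand) had 18.9, 19.1 and 18.9 CPM in *WT*, 32.2, 32.1 and 30.6 CPM in *KD1* and 45.0, 45.2 and 56.0 CPM in *KD2*. Every *KD1* culture lay above every *WT* culture, every *KD2* culture lay above both, and *KD2* replicate 3 was the highest of all. Its log2 fold change was 0.74 in *KD1* (SE 0.0870, adjusted p = 6.2e-06) and 1.36 in *KD2* (SE 0.0858, adjusted p = 9.4e-09). *H2-D1* (ENSMUSG00000073411, chr17:35262730-35267499, plus strand) had 6.14, 5.51 and 6.24 CPM in *WT*, 8.48, 8.56 and 8.82 CPM in *KD1* and 51.97, 52.05 and 63.35 CPM in *KD2*. It was low in *WT* and *KD1*, which differed by a small step without overlap, and high in all 3 *KD2* cultures. Its log2 fold change was 0.54 in *KD1* (SE 0.111, adjusted p = 9.4e-04), 3.23 in *KD2* (SE 0.0988, adjusted p = 1.1e-11) and 2.69 in *KD2* against *KD1* (SE 0.0920, adjusted p = 8.2e-12).

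The balance between the heavy chains therefore differed between the lines. Per kb of principal transcript, *H2-D1* stood at 25.05%, 22.2% and 25.5% of *H2-K1* in *WT*. The *KD1* cultures had 20.3%, 20.6% and 22.2%, and the *KD2* cultures 88.9%, 88.7% and 87.1%. *WT* and *KD1* were close together and *KD2* far above, with *KD2* replicate 3 beside its replicates. The principal transcript was chosen after the data had been seen, and with the union of all annotated exons as the length the ratio was 32.8% to 37.7% in *WT*, 30.05% to 32.9% in *KD1* and 128.8% to 131.5% in *KD2*. Which heavy chain gene was higher in *KD2* thus depends on the length used. This ratio was computed after the levels had been seen and is a description without a test. Class I genes are alike in sequence, and 9.63% of the windows of 50 bases in the exons of *H2-K1* and 12.8% of those of *H2-D1* also occur in other genes, most of all in *H2-Q10* (5.18%) and *H2-Q1* (5.87%). Those genes had few counts, at most 37 and 8 in any culture. BALB/c mice carry another class I haplotype than the C57BL/6 reference, with an *H2-L* gene close to *H2-D1* that the reference lacks, so reads of *H2-L* could be counted on *H2-D1*. The effect of the haplotype on these levels was not tested.

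*B2m* encodes β2-microglobulin, the light chain shared by all class I molecules, and was the most abundant of the set per length. It (ENSMUSG00000060802, chr2:122147686-122153083, plus strand) had 119.7, 114.2 and 123.7 CPM in *WT*, 174.3, 178.7 and 169.7 CPM in *KD1* and 213.2, 217.4 and 221.1 CPM in *KD2*. The lines formed 3 separate steps with little spread inside each. The log2 fold change was 0.55 in *KD1* (SE 0.0544, adjusted p = 1.1e-06) and 0.87 in *KD2* (SE 0.0545, adjusted p = 9.0e-09), and *B2m* was thus the gene that passed in *KD2* without reaching a log2 fold change of 1. None of its windows of 50 bases occurs in another gene.

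The peptide transporter is a dimer of the products of *Tap1* and *Tap2*. *Tap1* (ENSMUSG00000037321, chr17:34187553-34197225, plus strand) had 2.81, 3.44 and 3.07 CPM in *WT*, 6.34, 7.07 and 6.73 CPM in *KD1* and 10.05, 11.1 and 11.2 CPM in *KD2*. It rose by 1.10 on the log2 scale in *KD1* (SE 0.119, adjusted p = 2.6e-06) and by 1.79 in *KD2* (SE 0.115, adjusted p = 1.1e-08). *Tap2* (ENSMUSG00000024339, chr17:34203527-34216321, plus strand) had 5.58, 6.15 and 6.68 CPM in *WT*, 17.9, 17.4 and 18.2 CPM in *KD1* and 33.6, 31.2 and 40.1 CPM in *KD2*. Both genes rose in both edited lines with no overlap between any of the lines, and *Tap2* rose more. Its log2 fold change was 1.54 in *KD1* (SE 0.110, adjusted p = 3.6e-08) and 2.50 in *KD2* (SE 0.107, adjusted p = 2.2e-10). Per kb of principal transcript, *Tap1* stood at 53.6% to 65.1% of *Tap2* in *WT*, 41.2% to 47.5% in *KD1* and 32.6% to 41.5% in *KD2*, where *KD1* and *KD2* overlapped. With the union of exons it was 31.7% to 38.6%, 24.4% to 28.1% and 19.3% to 24.6%. *Tapbp* encodes tapasin, which holds the empty class I molecule at the transporter. It (ENSMUSG00000024308, chr17:33915899-33929292, plus strand) had 43.7, 52.1 and 49.3 CPM in *WT*, 118.1, 124.7 and 122.9 CPM in *KD1* and 151.2, 145.3 and 178.2 CPM in *KD2*. The *WT* cultures were far below the rest, and *KD1* lay just below *KD2*. The log2 fold change was 1.33 in *KD1* (SE 0.0846, adjusted p = 9.4e-09) and 1.71 in *KD2* (SE 0.0850, adjusted p = 9.4e-10).

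The 3 immunoproteasome genes behaved differently from each other. *Psmb8* encodes β5i, which takes the place of the constitutive subunit PSMB5. It (ENSMUSG00000024338, chr17:34197721-34201454, plus strand) had 0, 3 and 3 counts in *WT*, 3, 1 and 1 in *KD1* and 102, 125 and 127 in *KD2*. *WT* and *KD1* were at or under the floor and no fold is given between them, while every *KD2* culture was clearly detected, at 4.12, 4.16 and 6.24 CPM. From 354 counts in *KD2* and 6 in *WT*, the ratio of the summed levels was 51.1 (95% counting interval 23.2 to 140.1), and against the 5 counts in *KD1* it was 72.9 (30.9 to 225.9). The fitted log2 fold change of *KD2* was 5.62 against *WT* (SE 0.396, adjusted p = 2.7e-08) and 6.10 against *KD1* (SE 0.401, adjusted p = 9.3e-09). With single cultures left out, these ran from 5.12 to 6.07 and from 5.86 to 6.73.

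*Psmb9* encodes β1i, the counterpart of PSMB6. It (ENSMUSG00000096727, chr17:34181987-34187764, minus strand) had 4, 6 and 5 counts in *WT*, 33, 44 and 31 in *KD1* and 50, 80 and 74 in *KD2*. Unlike *Psmb8* it was above the floor in every culture and already higher in *KD1*, and the 3 lines did not overlap in CPM. The log2 fold change was 2.57 in *KD1* (SE 0.363, adjusted p = 3.4e-05) and 3.54 in *KD2* (SE 0.328, adjusted p = 4.2e-07). The ratios of summed levels were 6.05 (95% counting interval 3.51 to 11.2) and 11.8 (6.97 to 21.4). *Psmb10* encodes β2i, the counterpart of PSMB7, and was the abundant one. It (ENSMUSG00000031897, chr8:105935735-105938444, minus strand) had 21.1, 21.2 and 20.7 CPM in *WT*, 39.4, 39.6 and 39.9 CPM in *KD1* and 39.9, 37.9 and 52.4 CPM in *KD2*. Both edited lines were above *WT*, and the *KD2* cultures lay on both sides of *KD1*. The log2 fold change was 0.92 in *KD1* (SE 0.103, adjusted p = 3.7e-06), 1.04 in *KD2* (SE 0.103, adjusted p = 7.7e-07) and 0.13 in *KD2* against *KD1* (SE 0.0969, adjusted p = 0.26). Without *KD2* replicate 3 the *KD2* value was 0.92, under the limit of 1, and that against *KD1* was -0.02. The number of genes called in *KD2* was then 8.

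Set against its constitutive counterpart in the same culture, each immunoproteasome subunit kept its own scale. The ratios are per kb of principal transcript, a length chosen after the data had been seen. *Psmb8* stood at 6.23%, 6.06% and 7.11% of *Psmb5* in *KD2*, and is not given for *WT* and *KD1*, where it was at or under the floor. Of the windows of *Psmb5*, 54.1% occur in other genes, most in the pseudogene *Gm3375*, which had 426 to 838 counts in a culture, so the level of *Psmb5* and this ratio are uncertain. *Psmb9* stood at 0.103%, 0.116% and 0.111% of *Psmb6* in *WT*, 0.431%, 0.587% and 0.438% in *KD1* and 0.871%, 1.23% and 1.20% in *KD2*. *Psmb10* stood at 14.9%, 16.0% and 14.4% of *Psmb7* in *WT*, 26.8%, 26.5% and 27.2% in *KD1* and 22.6%, 22.5% and 29.4% in *KD2*. *Psmb10* thus had the highest ratio in every culture, and *KD2* exceeded *KD1* in every culture for *Psmb9* but not for *Psmb10*. With the union of exons, the *Psmb8* ratio was 2.92% to 3.42% in *KD2*. The *Psmb9* ratio was 0.0889% to 0.101% in *WT*, 0.373% to 0.508% in *KD1* and 0.755% to 1.06% in *KD2*, and the *Psmb10* ratio was 32.6% to 36.4% in *WT*, 60.1% to 61.7% in *KD1* and 51.1% to 66.8% in *KD2*, so the height of each ratio depends on the length used. The differences between lines do not. The log2 ratio of *Psmb9* to *Psmb6* was higher by 2.13 in *KD1* and 3.31 in *KD2*. The log2 ratio of *Psmb10* to *Psmb7* was higher by 0.83 in *KD1* and 0.71 in *KD2*. Each of these 4 differences had p = 0.1 by a two-sided exact permutation test, also after adjustment over the 4, which is the smallest p that 3 against 3 cultures allow.

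**Figure D2:**
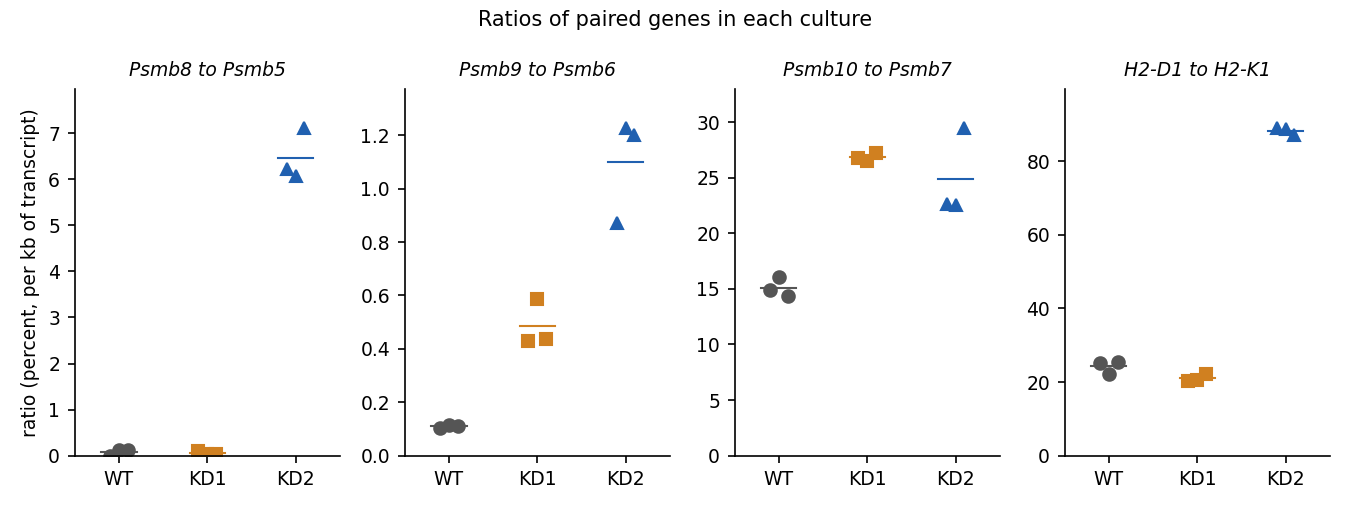
Ratio of each immunoproteasome gene to its constitutive counterpart, and of *H2-D1* to *H2-K1*, in each culture, in percent per kb of principal transcript. Points are cultures and short lines are means, and the axes start at 0. *Psmb8* to *Psmb5* rests on counts at or under the floor in *WT* and *KD1* and is 6.06% to 7.11% in *KD2*, and *H2-D1* to *H2-K1* is 87.1% to 88.9% in *KD2*.

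*Nlrc5* encodes the transactivator that binds class I promoters through the RFX, CREB and NF-Y proteins. It (ENSMUSG00000074151, chr8:94434356-94527272, plus strand) had 11, 5 and 3 counts in *WT*, 19, 19 and 15 in *KD1* and 142, 156 and 134 in *KD2*. The gene was near the floor in *WT*, low in *KD1* and well detected in *KD2*, at 5.73, 5.19 and 6.59 CPM. The ratio of summed levels to *WT* was 2.35 in *KD1* (95% counting interval 1.37 to 4.20) and 19.7 in *KD2* (12.4 to 33.0). The log2 fold change was 4.28 in *KD2* (SE 0.280, adjusted p = 1.3e-08) and 3.07 in *KD2* against *KD1* (SE 0.230, adjusted p = 3.7e-08). Without *WT* replicate 1 the value of *KD2* against *WT* was 5.00. In *KD1* it was 1.21 (SE 0.392, adjusted p = 0.017), and it rests on few *WT* counts. It was 1.93 without *WT* replicate 1, and it no longer passed without *WT* replicate 2 (0.98, adjusted p = 0.081) or *WT* replicate 3 (0.94, adjusted p = 0.070).

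*KD2* was also compared directly with *KD1*. Of the 10 genes, 9 passed with a higher level in *KD2* and 3 were called, *H2-D1*, *Psmb8* and *Nlrc5*. Of the 7 genes above the filter in every culture, 6 passed and 1 was called. Over all genes tested, 34.8% passed with a higher and 33.0% with a lower level in *KD2*, and 14.7% were called higher and 8.58% lower. The median log2 difference was 0.83 over the 10 genes, 0.68 without *Psmb8* and 0.62 over the 7, where all genes had a median of 0.02. The gene that did not pass was *Psmb10*.

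**Figure D3:**
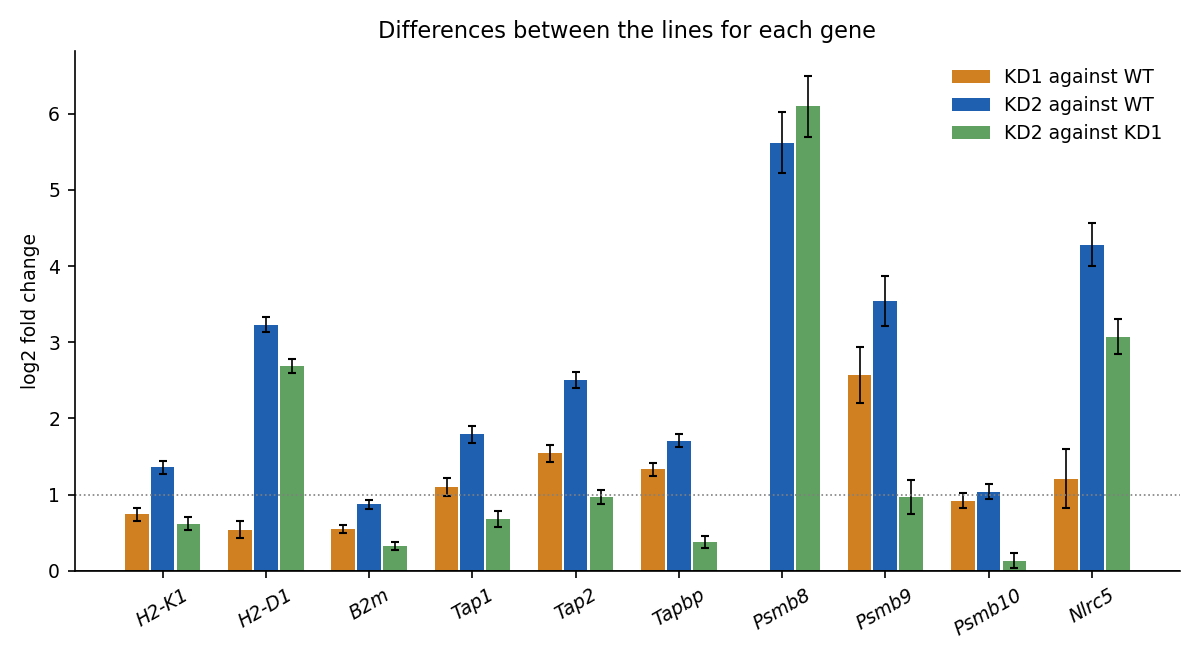
Log2 fold change of each gene between the lines, from edgeR, with bars from 0 and error bars of 1 SE. The dotted line is the limit of 1 for a call, and *Psmb8* has no bar for *KD1* against *WT* because both lines were at the floor. The differences between *KD2* and *KD1* run from 0.13 for *Psmb10* to 6.10 for *Psmb8*.

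The order of the levels within a line changed as well. Per kb of principal transcript, *WT* had *B2m* first at 138.6 CPM (SD 5.52), then *Tapbp* at 16.7 (SD 1.47) and *Psmb10* at 16.0 (SD 0.180), which overlapped, then *H2-K1* at 11.7 (SD 0.0933). *H2-D1* at 2.84 (SD 0.188), *Tap2* at 1.78 (SD 0.161) and *Tap1* at 1.05 (SD 0.106) followed without overlap. *Psmb9* and *Nlrc5* were under 0.2 CPM per kb in *WT*, and *Psmb8* was at or under the floor. In *KD1* the order was the same down to *H2-K1* at 19.5 CPM per kb (SD 0.545), but *Tap2* at 5.19 (SD 0.131) stood above *H2-D1* at 4.10 (SD 0.0848). In *KD2*, *Psmb10* at 33.1 CPM per kb (SD 5.98), *H2-K1* at 30.1 (SD 3.89) and *H2-D1* at 26.5 (SD 3.11) overlapped, although *H2-D1* was the lower of the heavy chain genes within every culture. With the union of exons, the means of *WT* and *KD1* had the same order down to *Tap1*, while in *KD2* *H2-D1* at 21.6 CPM per kb (SD 2.54) had a higher mean than *H2-K1* at 16.6 (SD 2.15). Per kb of principal transcript, *Psmb8* at 2.97 CPM (SD 0.746) overlapped both *Tap1* at 3.65 (SD 0.216) and *Psmb9* at 2.05 (SD 0.603), and *Nlrc5* was last at 0.770 (SD 0.0929).

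Position was shared by most of the set. *Tapbp*, *H2-K1*, *Psmb9*, *Tap1*, *Psmb8*, *Tap2* and *H2-D1* lie in 1.35 Mb of chromosome 17, the H2 region, from 33915899 to 35267499, while *B2m* is on chromosome 2 and *Psmb10* and *Nlrc5* are on chromosome 8. The 54 tested genes of the region in no list had a median log2 fold change of -0.04 in *KD1*, where 14 passed with a higher and 14 with a lower level, and 0.36 in *KD2*, where 27 passed with a higher and 3 with a lower level. Without *KD2* replicate 3 the numbers were 18 and 18 in *KD1* and 24 and 6 in *KD2*. The shares of all genes tested were 26.9% higher and 30.0% lower in *KD1*, and 34.0% and 33.3% in *KD2*. Among the 27 genes higher in *KD2*, *Gm20493* and *Gpsm3* passed the expression filter only through *KD2*. *C4a* was below the filter in every *WT* culture and near it in *KD1*, at 0.406, 0.354 and 0.322 CPM. It no longer passed in *KD2* without *KD2* replicate 3 (adjusted p = 0.07) or without *WT* replicate 1 (adjusted p = 0.083). A count over genes above the filter in every culture is not given for the region. All 696 tested genes of chromosome 17 had medians of 0.01 and 0.28. Of them, 207 passed with a higher and 163 with a lower level in *KD1*, and 359 and 88 in *KD2*. The 1129 of chromosome 2 had medians of -0.16 and 0.14, with 230 higher and 464 lower, and 478 and 288. The 832 of chromosome 8 had medians of -0.26 and -0.19, with 144 higher and 417 lower, and 201 and 388. Of these 54 genes, those passing in both edited lines were ordered by the size of their mean log2 fold change over the 2, and the first 4 were *Ly6g6c*, a surface protein gene (5.17 in *KD1* and 0.60 in *KD2*), the receptor gene *Notch4* (1.05 and 2.52), the class I pseudogene *H2-K2* (1.13 and 2.23) and *Vwa7* (1.10 and 2.05). *H2-K2* and *Notch4* were below the filter of 0.392 CPM in every *WT* culture, and passed it only through the edited lines. The order by mean puts genes with opposite changes low. *Col11a2*, a collagen gene named after its values were seen, had -3.58 in *KD1* and 1.77 in *KD2*. Without *WT* replicate 1, *Notch4* no longer passed in *KD1* (adjusted p = 0.072) nor *Ly6g6c* in *KD2* (adjusted p = 0.071), the latter also without *KD2* replicate 3 (adjusted p = 0.076).

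Some of these neighbours share exon sequence. The annotated exons of *Tap1* and *Psmb9* overlap on opposite strands, and 3.33% of the windows of *Tap1* and 4.19% of those of *Psmb9* also occur elsewhere. *Tapbp* overlaps *Zbtb22* on the same strand and *Gm19412* on the other, and shares 23.2% of its windows. *Zbtb22* differed from *WT* by -0.38 in *KD1* and -0.02 in *KD2* (log2), and *Gm19412* had at most 4 counts in a culture. *Psmb8* shares 11.9% of its windows, most with *Gm20496*, which was at 0 in all 9 cultures. *Tap2* shares 11.6%, most with *Gm15821*, which had at most 6 counts in a culture. *Nlrc5* shares 0.339% with *9330175E14Rik*, which had at most 15 counts in a culture. *Psmb10* shares none. The sources used here do not give the strandedness of the counting, so counts in such overlaps are uncertain.

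The promoters of the set were read for letters that they share. RefSeq promoters of GRCm38.p6 were matched for 8 of the 10 genes, and none for *Tap2* and *Nlrc5*. In the 250 bases before each start, 5 motifs were searched on both strands: an interferon-stimulated response element core (GAAANNGAAA), a gamma-activated site (TTCNNNGAA), a kB site (GGGNNTTCC), a CRE core (TGACG) and a CCAAT box (CCAAT). Of all 32817 RefSeq promoters, these are held by 2.97%, 7.01%, 4.97%, 17.7% and 33.8%, and of the 13470 promoters of tested genes by 2.49%, 5.83%, 6.21%, 25.8% and 35.2%. The class I promoter module that NLRC5 binds has a CRE core before a CCAAT box, and both sets of letters, in any order, were found in the promoters of *H2-K1*, *H2-D1*, *B2m*, *Tap1* and *Psmb9*. In *Tap1* the CCAAT letters, 222 bases before the start, precede the CRE core at 86 bases. The kB letters were found in *H2-K1* and *H2-D1*, the response element core in *B2m* and the gamma-activated site letters in *Psmb8*. *Tapbp* held CCAAT alone, and *Psmb10* held none of the 5. A match is a description of the letters, not a binding site.

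The promoters of *H2-K1* and *B2m* are printed because they hold these motifs in 1 stretch that lies outside annotated exons, with the matches in capitals. The first lies at chr17:34000349-34000468 on the minus strand and holds, in order, the kB, CRE core and inverted CCAAT letters. The second lies at chr2:122147538-122147648 on the plus strand and holds the response element core, CRE core and inverted CCAAT letters.
*H2-K1*: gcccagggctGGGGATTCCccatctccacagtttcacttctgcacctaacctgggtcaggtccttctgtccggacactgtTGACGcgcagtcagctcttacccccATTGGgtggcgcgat
*B2m*: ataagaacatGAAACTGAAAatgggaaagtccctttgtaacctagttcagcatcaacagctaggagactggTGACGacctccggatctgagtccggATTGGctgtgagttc

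The heavy chain genes differed in their rise, so the same place was compared in *H2-D1*. From the first base of the kB letters to the end of the CRE core, *H2-K1* and *H2-D1* each have 75 bases, and 71 of them are identical. The kB letters of *H2-D1* lie at chr17:35262913-35262941 on the plus strand with 10 bases on each side. The CRE core between *Psmb9* and *Tap1*, which are read away from each other, is 1 site in both promoters. With 10 bases on each side it lies at chr17:34187460-34187484, and it is shown on the strand of *Tap1*. The gamma-activated site letters of *Psmb8*, the gene above the floor only in *KD2*, lie at chr17:34198088-34198116 on the plus strand with 10 bases on each side. Each of these lies in an annotated exon of some transcript, so only the match and its flanks are shown.
*H2-D1*: gcccagggctGGGGATTCCccatctcctc
*Tap1* and *Psmb9*: cagagacaggTGACGacagagggtc
*Psmb8*: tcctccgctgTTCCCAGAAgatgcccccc

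Genes for loading and trimming partners were mostly higher in *KD1* but went both ways in *KD2*. Of 16 genes for loading and trimming partners (chaperones, aminopeptidases and proteasome activator subunits), 10 passed with a higher and 2 with a lower level in *KD1*, and 6 and 5 in *KD2*. These were 8 and 6 in *KD2* without its replicate 3. The median over the 16 was 0.33 in *KD1* and 0.13 in *KD2*. Over all genes tested, 26.9% passed with a higher and 30.0% with a lower level in *KD1*, and 34.0% and 33.3% in *KD2*. The numbers of the 16 in *KD2* were thus near the shares of all genes. The proteasome activator gene *Psme1* had 36.1, 38.6 and 41.1 CPM in *WT*, 106.1, 105.2 and 105.1 CPM in *KD1* and 49.7, 49.5 and 52.3 CPM in *KD2*. It was highest in *KD1*, with a log2 fold change of 1.45 in *KD1* (SE 0.0615, adjusted p = 1.2e-10), 0.39 in *KD2* (SE 0.0622, adjusted p = 8.5e-05) and -1.06 in *KD2* against *KD1* (SE 0.0601, adjusted p = 1.9e-09). The tapasin relative gene *Tapbpl* changed in the same order, by 1.16 in *KD1* and 0.35 in *KD2*, and *Erap1*, for the aminopeptidase that trims peptides in the endoplasmic reticulum, rose by 0.53 in *KD1* and fell by 0.45 in *KD2* (0.28 without *KD2* replicate 3). In *KD2* against *KD1*, none of the 16 passed with a higher level and 12 passed with a lower level, the opposite direction to the set, with a median of -0.45. Without *KD2* replicate 3 these were 1 and 13, the 1 being *Lnpep* (0.43, adjusted p = 3.7e-07). In this comparison, 34.8% of all genes tested passed with a higher and 33.0% with a lower level.

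The 14 genes of the constitutive 20S proteasome moved by small amounts, from -0.26 to 0.46 in *KD1* and from -0.67 to 0.32 in *KD2*. In *KD1*, 6 passed with a higher and 2 with a lower level, in *KD2* 5 and 3, and none was called in either line, with medians of 0.10 and 0.04. The numbers with a higher level were 9 and 4 without *KD2* replicate 3, and 4 and 2 without *WT* replicate 1. Shares of all genes tested, for this list and the class I list below, were 26.9% higher and 30.0% lower in *KD1*. In *KD2* they were 34.0% and 33.3%. For the counterparts *Psmb5*, *Psmb6* and *Psmb7*, *KD1* differed from *WT* by 0.10, 0.46 and 0.09 and *KD2* by -0.56, 0.26 and 0.32, of which those of *Psmb5* are uncertain for its shared windows. Without *KD2* replicate 3, *Psmb5* and *Psmb7* passed in *KD1*, and without *WT* replicate 1, *Psmb6* no longer passed in *KD2* (adjusted p = 0.096). Among non-classical and related class I genes, 11 of 19 were tested, and 8 passed with a higher and 1 with a lower level in *KD1*, and 10 and 0 in *KD2*. Of the 7 above the filter in every culture, 6 passed with a higher and 0 with a lower level in each edited line. The median of the 11 was 0.86 in *KD1* and 1.87 in *KD2*. The log2 fold changes of *KD1* and *KD2* were 1.04 and 2.22 for *H2-T22*, 2.77 and 2.22 for *H2-T24*, and 1.17 and 1.70 for *H2-M3*. *H2-T24* had 3, 20 and 4 counts in *WT*, so its values depend on *WT* replicate 2. Without that culture, left out after the data had been seen, they were 4.00 and 3.45. *H2-T22* shares 53.5% of its windows with other genes, 31.2% with *H2-T10*, so its level is uncertain. *Fcgrt*, for the neonatal Fc receptor, which also pairs with β2-microglobulin, went in opposite directions, by -3.10 in *KD1* and 2.85 in *KD2*. It had 4, 7 and 4 counts in *KD1*, below the filter in every *KD1* culture, so the size of the fall rests on few counts.

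Class II presentation was mostly not detected. Of its 11 genes only *Cd74* and *H2-DMa* were tested, while *H2-Aa*, *H2-Ab1* and *H2-Eb1* had at most 1 count in any culture and the class II transactivator gene *Ciita* at most 6. *Cd74*, the invariant chain gene, had 8, 3 and 6 counts in *WT*, 28, 33 and 23 in *KD1* and 138, 163 and 93 in *KD2*. Its lines thus stood in the same order as the class I set, with log2 fold changes of 2.03 and 4.28. *Cd74* passed the expression filter through *KD1*, *KD2* and 1 *WT* culture, and only *H2-DMa* was above it in every culture. *H2-DMa* had log2 fold changes of -0.49 and 1.58, the former not passing without *WT* replicate 1 (adjusted p = 0.11).

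Of 26 genes for regulators of the pathway, 24 were tested, and 15 passed with a higher and 6 with a lower level in *KD1*, and 12 and 7 in *KD2*, with medians of 0.26 and 0.14. Of all genes tested, 26.9% passed with a higher and 30.0% with a lower level in *KD1*, and 34.0% and 33.3% in *KD2*. *Irf1*, for a transcription factor of class I and immunoproteasome genes, had 31.1, 32.8 and 33.0 CPM in *WT*, 93.6, 94.8 and 96.0 CPM in *KD1* and 85.7, 87.6 and 100.7 CPM in *KD2*. It was high in both edited lines, which overlapped, with log2 fold changes of 1.55 and 1.50, and -0.05 in *KD2* against *KD1* (SE 0.0659, adjusted p = 0.48), which passed without *KD2* replicate 3 (-0.12, adjusted p = 0.021). *Stat2*, for a signal transducer of type I interferon, was highest in *KD2*, with log2 fold changes of 0.93 in *KD1* and 1.63 in *KD2*. *Rfx5*, for a partner of NLRC5 on class I promoters, had 0.33 and 0.85. Of the other partner genes, *Rfxank* had -0.51 and 0.08, *Rfxap* 0.04 and -0.37, and *Nfyc* 0.08 and 0.03. Lower in both lines were *Nfya* (-0.19 and -0.47), *Nfyb* (-0.69 and -0.8) and *Atf1* (-0.49 and -0.99). *Creb1* had -0.29 in each line, not passing without *WT* replicate 1 (adjusted p = 0.065 and 0.052). *Ifngr2*, for a chain of the interferon gamma receptor, was highest in *KD1*, at 1.24 and 0.20, the latter not passing without *WT* replicate 1 (adjusted p = 0.059). *Ifngr1*, for the other chain, was lower in both lines, at -0.77 and -0.35. *Ifng* itself had at most 7 counts and *Ifnb1* at most 2 in any culture, and neither was tested.

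Markers of other cells were read because immune cells carry much class I RNA. Of 25 immune cell markers, 5 were tested, and the list summed to 10.9 to 13.1 CPM in each *WT* culture, to 24.8 to 28.3 CPM in each *KD1* culture and to 26.6 to 31.1 CPM in each *KD2* culture. Of the 5, 3 passed with a higher and 1 with a lower level in *KD1*, and 3 and 0 in *KD2*. For this and the other marker lists, the shares of all genes tested were 26.9% and 30.0% in *KD1*, and 34.0% and 33.3% in *KD2*. Only *Cd14* and *Cd68* were above the filter in every culture, while *Flt3* passed it only through *KD1* and *Lyz2* only through *KD2*. Of the former pair, 2 passed with a higher level in *KD1* and 1 in *KD2*. The most abundant gene of the list in every culture was *Cd14*, at 6.19 to 21.7 CPM, and without it the sums were 4.10 to 6.81 in *WT*, 13.7 to 16.5 in *KD1* and 7.87 to 9.44 in *KD2*. Among the defining markers, *Cd4*, *Ms4a1*, *Adgre1*, *Nkg7*, *Klrb1c* and *Tyrobp* were at 0 in all 9 cultures, and *Ptprc*, the gene common to white blood cells, had 5 counts over all 9. Others moved. *Flt3* had 6 counts over the 3 *WT* cultures, 465 in *KD1* and 3 in *KD2* (log2 fold change 5.95 in *KD1*), and *Lyz2* had 2, 0 and 99 (5.20 in *KD2*). *Itgax* differed by -0.98 in *KD1* and 2.21 in *KD2*, *Cd68* by 0.89 and -0.02 and *Cd14* by 0.76 and 1.60. *Spi1*, which was not tested, had 5, 47 and 2 counts. The 11 epithelial markers were led by *Krt5* and had sums, in CPM, of 5064 to 5654 for *WT*, 5855 to 6011 for *KD1* and 3047 to 3735 for *KD2*, with *Krt19* at 0 in every culture. Of the 10 tested, 4 passed with a higher level in *KD1*, and 2 with a higher and 6 with a lower level in *KD2*. The 4 became 6 without *KD2* replicate 3. Of the 8 above the filter in every culture, which leave out *Elf5*, 1 passed with a higher and 5 with a lower level in *KD2*. In *KD2*, *Krt8* (0.76) and *Elf5* (2.87) were higher, and *Krt5* (-0.96) and *Krt14* (-0.90) were lower. Other genes that passed with a lower level are not named, and the 10 had a median of -0.53 and a minimum of -1.92. The named genes thus do not stand for the list. *Elf5* was below the filter in every *WT* culture, and *Cldn7* in every *KD2* culture. The 9 stromal and endothelial markers had sums, in CPM, of 16.0 to 21.9 for *WT*, 13.2 to 15.0 for *KD1* and 89.4 to 98.4 for *KD2*, in the last mostly from *Pdgfrb*. Of the 5 tested, 1 passed with a higher and 3 with a lower level in *KD1*, and 3 and 2 in *KD2*. *Col1a2* and *Pdgfrb* were below the filter in *KD1*. *Col1a2* had 0 counts in every *KD1* culture, so its fitted value of -7.85 there is no measured size. The log2 fold changes in *KD1* and *KD2* were -3.62 and -0.71 for *Col1a1*, -7.85 and 1.38 for *Col1a2*, -2.50 and 6.32 for *Pdgfrb* and 1.18 and -1.23 for *Pecam1*. The part of these marker changes in the class I results was not tested.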

How the data were processed

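The 9 cultures were grouped by the line and replicate number in the sample labels. The deposited values are raw counts per gene, as whole numbers. Per the study's methods and notes, the authors made them by trimming with fastp, alignment to GRCm38 by HISAT2 and counting over exons by featureCounts of Subread. Versions, strandedness and the treatment of reads that map to several places are not given in the sources used here. No column of the table was left without a culture (0 columns).

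The 3 lines were fitted together, with no block, in edgeR 4.0.16 (R 4.3.3), and compared by the quasi-likelihood test after TMM scaling and the filterByExpr filter at 0.392 CPM. Benjamini-Hochberg adjustment ran over 15253 genes. A gene passed at an adjusted p under 0.05, and was called with an absolute log2 fold change above 1 as well. Fits were tested on simulated data, from which no value is given here. Alternatives were DESeq2 1.42.0, other scalings and filters, the 6 cultures compared, a replicate block and leaving out each culture. Counts over the 7 genes above the filter everywhere, and the principal transcript length (GENCODE), were added after seeing the data.

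Positions, exons and windows of 50 bases came from GENCODE M21, another release than the one the study names, and 53456 of 55228 gene names matched it. The genes named are the 10 of the set, up to 4 other genes of the H2 region, and the 5 genes most like the set. Genes of the lists were named by the size of their change or as counterparts and regulators, but not strictly. *Erap1* and *Fcgrt*, which went in opposite directions in the 2 lines, were given. *Npepps* (0.94 in *KD1* and 0.32 in *KD2*) and the changes of *H2-T10* (0.69 and 2.54) were left out above. *Gm15821*, *Gm19412*, *Gm20496*, *9330175E14Rik* and *Zbtb22* were named for their overlap. The set and the lists were chosen with earlier results of these data known.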

Additional observations from a re-analysis of the deposited data

Results flagged for a closer look

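The difference between the edited lines was tested directly. Of the 7 genes above the expression filter in every culture, 6 differed between *KD2* and *KD1* in their change from *WT* (adjusted p under 0.05 by edgeR), and of all 10 genes 9 did. *KD2* was the higher line each time. Over all genes tested, 34.8% passed with a higher and 33.0% with a lower level in *KD2*. The log2 difference was 2.69 for *H2-D1* and 3.07 for *Nlrc5*. It was 6.10 for *Psmb8*, which passed the filter only through *KD2* and was at or under the floor in *KD1*. It was 0.97 for *Tap2*, 0.97 for *Psmb9*, 0.68 for *Tap1* and 0.62 for *H2-K1*. For *Tapbp* it was 0.38 and for *B2m* 0.32. With *WT* shared by both comparisons, this is the same as the direct comparison of the lines.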

How the results depend on the processing

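Of the values of single genes under the alternatives, 452 kept their direction and their side of the adjusted p limit and 4 did not. Calls also need a log2 fold change above 1, and 6 of the 452 crossed that limit: *Psmb10* in *KD2* against *WT* without *KD2* replicate 3 (0.92), and in *KD2* against *KD1* *Tap2* with library size alone (1.09) or without *KD2* replicate 2 (1.04) and *Psmb9* with library size alone (1.10) or without *KD1* replicate 2 (1.14) or *KD2* replicate 1 (1.15). With a replicate block, 5, 9 and 3 genes were called in *KD1* against *WT*, *KD2* against *WT* and *KD2* against *KD1*, as without it. The numbers did not pair the cultures: deviations of same-numbered cultures had a mean correlation across genes of 0.00828 (-0.0747 to 0.11), those of differently numbered cultures -0.00543, and 4 of 9 correlated best with their own number. With at least 10 counts in every culture, fewer genes are tested, and 3 were called in *KD1*, 6 in *KD2* and 1 in *KD2* against *KD1*. Among genes above the filter everywhere, 3 were called in *KD1*. With library size alone, 5 were called in *KD2* against *KD1*, and the median of all genes moved from 0.02 to 0.14, and from 0.01 to 0.12 in *KD2* against *WT*. *Psmb10* in *KD2* against *KD1* then passed (0.25, adjusted p = 0.034). Without *KD2* replicate 3 it was -0.02 (up to 0.22 without others), and the cause was not tested. *Nlrc5* in *KD1* ranged from 0.94 to 1.93 and lost its call without *WT* replicate 2 or 3. Depth limits *Psmb8*, *Psmb9* and *Nlrc5*, which had 6, 15 and 19 counts in *WT*. With the union of exons as the length, chosen as an alternative after the data had been seen, the ratio of *H2-D1* to *H2-K1* in the *KD2* cultures was 131.5%, 131.2% and 128.8%, above 100% instead of below it.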

Other observations

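The 5 tested genes outside the lists whose log2 CPM over the 9 cultures was most like the mean of the set were *Fam219a* (Pearson r 0.998), *Recql5* (0.9975), *Gaa* (0.9958), *Pcolce2* (0.9948) and *Faah* (0.9947). These values describe 3 separate lines rather than 9 independent points. *Fam219a* had 6.65, 7.43 and 7.07 CPM in *WT*, 13.8, 13.8 and 13.1 CPM in *KD1* and 21.2, 22.8 and 27.2 CPM in *KD2*, in even steps like *H2-K1*. *Gaa*, for the lysosomal enzyme that breaks down glycogen, had log2 fold changes of 0.65 in *KD1* and 1.31 in *KD2*, and *Faah*, for the enzyme that breaks down fatty acid amides, 0.74 and 1.54. Within the set, the genes nearest to its mean were *H2-K1* (0.998) and *Tap2* (0.991), and the farthest was *Psmb8* (0.852).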
